A study of Glycyrrhiza uralensis with 6 samples.

Results

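The 200 unigenes with the steadiest levels in suspended licorice cells (Glycyrrhiza uralensis) were described across 6 RNA-Seq libraries. A unigene is the set of transcripts that the assembly joined into 1 gene. Members were chosen by the measured values themselves. Of 116907 unigenes in the files, 24775 had at least 10 counts in at least 3 libraries. Of these, 7400 had a mean level of at least 20 CPM over the 6 libraries and a group mean below 1000 CPM in each group, and they are called eligible here. CPM is the number of counted fragments per 1000000, after scaling each library with edgeR's TMM factor. The members are the 200 eligible unigenes with the smallest coefficient of variation (CV, the SD over the 6 libraries divided by the mean). The CV of the members and every contrast between the groups over these libraries were thus used in the choice and are given as description, with no test.

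The libraries came from a suspension line grown out of licorice callus. In 3 libraries, labelled MeJA, the cells had received 0.5 μL per mL of what the labels call MeJA (methyl jasmonate), and in 3 libraries, labelled control, 0.4 μL of absolute ethanol per mL, for 9 h in both. The methods speak of a MeJA solution and give its dose as a final concentration in the medium, so the volume need not be that of the pure compound, and they also mention a longer culture after the addition. No source states whether the replicates were separate cultures, so the spread between them may be technical. In 6 of 6 libraries the name that heads the value columns bears the letter of the other group. Groups are called here by their labels. Every direction turns round if those column names are the right ones, whereas membership of the list is the same either way.

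Methyl jasmonate is a volatile form of the plant hormone jasmonate. It is known to set off degradation of JAZ repressor proteins, to free the transcription factors that these proteins hold back, and to shift the expression of defence and secondary metabolism genes. Against such a shift, transcripts that keep a steady level serve as references for qPCR, where the amount of a target is expressed relative to them. Genes for actin, tubulin, ubiquitin and translation elongation factors are common choices in plants, and their steadiness is usually checked anew for each tissue and treatment. The study's own qPCR used Actin as the reference, and its primer pair, shown because it defines the reference that these candidates would stand beside, was:
Actin forward: agaaggatgcctatgtgggtg
Actin reverse: tctgtttgcttttgggttgag
The files pair no unigene with a sequence or a gene name. Which unigene these primers amplify was therefore not analysed here, and members are given by identifier, with no role.

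The libraries held between 17041503 and 21670946 counted fragments. The TMM factors ran from 1.13 to 1.28 in the libraries labelled MeJA and from 0.748 to 0.918 in those labelled control, with no overlap. TMM scaling rests on the assumption that most unigenes do not change between the libraries. That assumption was not tested, and no spike-in RNA was used here as an outside standard.

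The smallest CV belonged to c61053_g1. Its level was 22.1, 23.1 and 22.4 CPM in the libraries labelled MeJA and 21.4, 22.1 and 21.2 CPM in those labelled control. The highest library was 1.09 times the lowest, and the groups overlapped. The CV was 3.12%, below the 4.91% that counting error alone gives at this level. As the smallest CV of all eligible unigenes this is a selected extreme, and nothing is read from the comparison.

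The next was c58317_g1, with 129, 124 and 132 CPM labelled MeJA and 133, 133 and 137 CPM labelled control. Its CV was 3.26%, where counting alone gives 2.01%. Every library labelled MeJA lay below every library labelled control, by a ratio of group means of only 0.957. Unigene c32294_g1 had 59.0, 55.0 and 59.5 CPM labelled MeJA and 60.9, 56.6 and 55.4 CPM labelled control, with a CV of 4.13%. Its group means differed by a ratio of 1.003.

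Unigene c51503_g4 had 62.3, 60.5 and 61.8 CPM labelled MeJA and 66.1, 61.0 and 56.9 CPM labelled control, with a CV of 4.82%. Both its highest and its lowest library were labelled control. Unigene c61709_g1 had 50.5, 51.8 and 44.6 CPM labelled MeJA and 48.8, 46.9 and 46.4 CPM labelled control (CV 5.59%), with its extremes among the libraries labelled MeJA. Unigene c60217_g1 had 148, 140 and 150 CPM labelled MeJA and 132, 157 and 145 CPM labelled control (CV 6.05%), and its extremes were both labelled control. In the plot of single members, these 6 unigenes run nearly level from left to right.

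**Figure D1:**
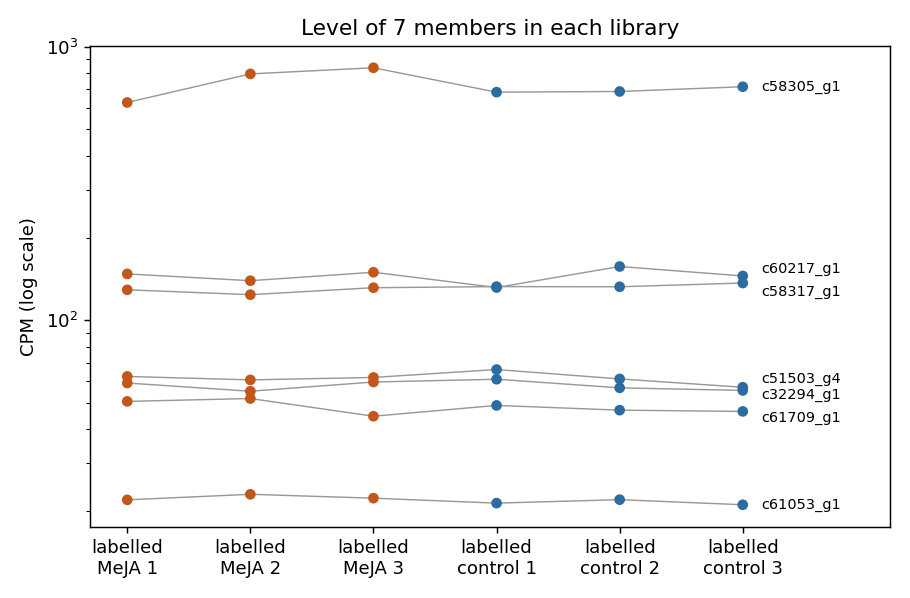
CPM on a log scale in each of the 6 libraries (orange, labelled MeJA; blue, labelled control) for the 6 members with the smallest CV and for the member with the highest mean level; each point is 1 library, and lines only join the points of 1 unigene. c61053_g1 lies between 21.2 and 23.1 CPM, while c58305_g1, near the top of the level range, lies between 626 and 839 CPM.

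Over the whole list the CV ran from 3.12% to 13.1%, with a median of 11.2% and quartiles of 9.57% and 12.2%. Over all eligible unigenes the median was 40.7%, with quartiles of 27.1% and 60.7%. Only 4 members had a CV below 5% and 62 a CV below 10%, so that 138 of the 200 lay between 10% and the edge of the list. The ratio of the highest to the lowest library had a median of 1.34 and reached 1.49 among the members. Its median was 2.96 over the eligible unigenes. In 30 members the ratio was below 1.25, and in c61053_g1 alone it was below 1.1.

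The edge of the list does not fall at a gap. Just inside were c8740_g1 and c61966_g1, both with a CV of 13.1%. Unigene c8740_g1 had 41.9, 31.4 and 43.4 CPM labelled MeJA and 34.6, 36.5 and 43.2 CPM labelled control, and c61966_g1 had 74.5, 61.6 and 55.3 CPM labelled MeJA and 78.0, 68.8 and 76.7 CPM labelled control. Just outside, c47758_g1 had 31.0, 26.8 and 26.8 CPM labelled MeJA and 33.1, 37.6 and 32.7 CPM labelled control. Unigene c39496_g1, also outside, had 60.7, 41.2 and 55.1 CPM labelled MeJA and 49.4, 48.1 and 48.8 CPM labelled control. Both had a CV of 13.1% when rounded, and nothing in these values sets them apart from the members.

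The level of the members within each library is a description, since the rule chose values close to their own mean. Each member's level divided by its mean had a median of 1.03, 0.978 and 0.974 in the libraries labelled MeJA 1 to 3 and of 1.004, 1.01 and 0.984 in those labelled control 1 to 3. The highest library of a member was most often MeJA 1 (51 members) and least often MeJA 3 (14 members). The lowest was most often MeJA 2 (47 members) and least often MeJA 1 (15 members). In the plot of relative levels, the boxes of all 6 libraries overlap.

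**Figure D2:**
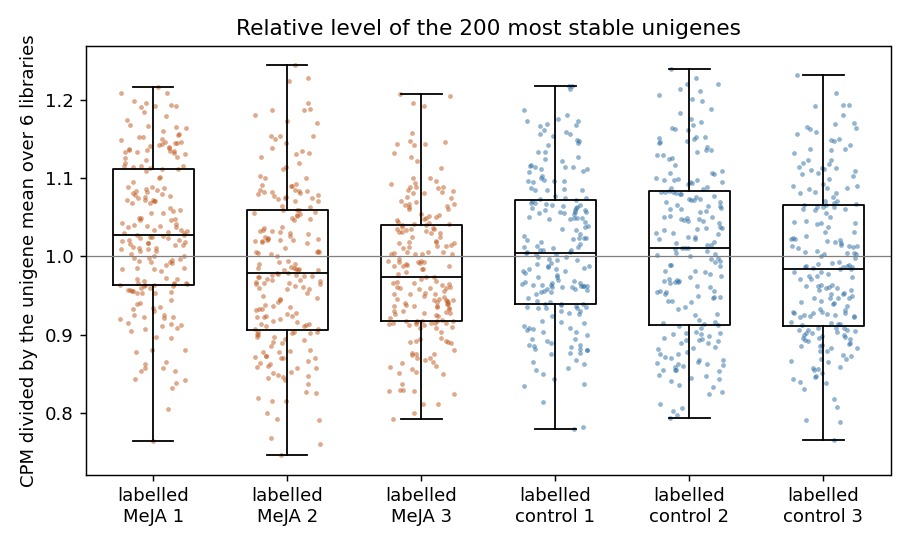
Each member's CPM divided by its mean over the 6 libraries, by library (orange, labelled MeJA; blue, labelled control); points are the 200 members, boxes show the quartiles and the median, and whiskers reach the lowest and highest value within 1.5 box heights. Values lie between 0.746 and 1.24 in every library, and the medians between 0.974 and 1.03.

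The rule limits the level of the members, and their median level was near that of the eligible unigenes. The mean level ran from 20.02 to 724 CPM with a median of 50.5 CPM, against a median of 52.8 CPM over the eligible unigenes. Between 20 and 50 CPM lay 98 members, which is 2.80% of the eligible unigenes of that band. Between 50 and 100 CPM lay 68 (3.40%), between 100 and 250 CPM lay 27 (1.94%), and between 250 and 1000 CPM lay 7 (1.38%). The lowest mean belonged to c57944_g1, with 20.6, 22.7 and 20.1 CPM labelled MeJA and 19.3, 19.6 and 17.7 CPM labelled control (CV 8.24%), and these groups did not overlap. The highest belonged to c58305_g1, with 626, 797 and 839 CPM labelled MeJA and 683, 687 and 715 CPM labelled control. Its CV was 10.9%, the smallest in the highest band, and its values labelled MeJA spread on both sides of those labelled control. In the bands below, the smallest CVs were those of c58317_g1, c32294_g1 and c61053_g1.

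The spread of the members can be set beside that of counting. The count of a member in a library ran from 212 to 20934, with a median of 989.5, and intervals from counting cover counting error only. Counting alone gave a median CV of 3.24% for the members and 3.17% for the eligible unigenes. Expressed as a share of the observed variance, the counting variance had a median of 9.10% over the members and of 0.555% over the eligible unigenes, and the rule chose the members for a small observed variance. After subtracting it, the median CV of the members was 10.2% in the band of 20 to 50 CPM and 11.5% in the band of 250 to 1000 CPM. In 1 member of 200, c61053_g1, the observed CV was not above the counting CV. In the plot of CV against level, the members form a band along the lower edge of the cloud, and most of them lie well above the counting line.

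**Figure D3:**
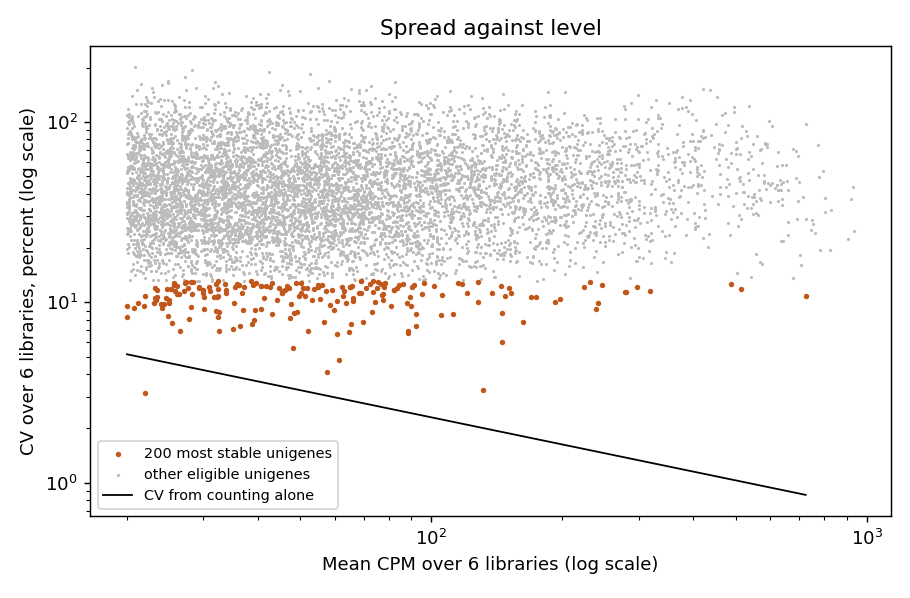
CV over the 6 libraries in percent against mean CPM, both on log scales, for the 200 members (orange) and the other eligible unigenes (grey); the black line is the CV that counting error alone would give at the depth of these libraries. The members lie between 3.12% and 13.1%, and 1 of them lies below the line.

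The rule used the contrast between the groups, so its values for the members are a description. With edgeR's quasi-likelihood test (Benjamini-Hochberg adjustment over all 24775 unigenes), 0 of the 200 members were called at an adjusted p threshold of 0.05, where 26.8% of all unigenes tested were. At an unadjusted p under 0.05 in the same test there were also 0 members, against 10015 of the 24775 unigenes tested and 3337 of the 7400 eligible ones. With the replicate number as a block edgeR called 0 members and 33.7% of all unigenes, and DESeq2 called 0 members and 33.6% of those it tested. The groups did not overlap in 24 members, 14 with MeJA above control and 10 with MeJA below it, where the groups did not overlap in 45.0% of all unigenes tested. Of the next 200 eligible unigenes by CV, the edgeR fit without the block also called 0 and had 0 at an unadjusted p under 0.05. The groups did not overlap in 30 of them, so 0 calls is not particular to the members. The log2 fold change had a median of -0.01 over the members, of -0.22 over the eligible unigenes and of -0.01 over all unigenes tested. It was positive in 92 members and negative in 108, and its absolute value had a median of 0.08, against 0.90 over all unigenes tested. The standard errors of the fit lay between 0.27 and 0.35 on the log2 scale, because edgeR draws the spread of each unigene toward that of the others. For a single member the error of the fit is therefore wider than its own replicates alone would give.

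The differences between groups among the members are bounded by the rule, since a small CV leaves little room for them. The largest are given here as a description. Unigene c61043_g2 had 58.3, 55.5 and 54.3 CPM labelled MeJA and 46.2, 42.5 and 48.5 CPM labelled control, with no overlap. Its log2 fold change was 0.29 with a standard error of 0.27 (edgeR adjusted p = 0.445), and in the fit scaled by total counts alone it passed the threshold. Unigene c1363_g1 had 53.5, 49.2 and 48.8 CPM labelled MeJA and 56.5, 62.1 and 66.2 CPM labelled control, a log2 fold change of -0.29 with a standard error of 0.27 (edgeR adjusted p = 0.458). Unigene c51410_g2 had 65.7, 78.4 and 63.5 CPM labelled MeJA and 85.03, 83.8 and 83.6 CPM labelled control, a log2 fold change of -0.28 with a standard error of 0.28 (edgeR adjusted p = 0.473). In both the libraries labelled MeJA lay below all those labelled control, and under scaling by total counts alone both signs turned positive.

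The spread of the members can be split by group and by replicate number, as a description. Of the variance of log2 CPM, summed over the members, 20.4% lay between the groups, 42.9% between replicate numbers and 36.7% in neither. Per degree of freedom these are 20.4%, 21.5% and 18.3%. Over the 7393 eligible unigenes counted in every library, 67.9% lay between the groups, 21.1% between replicate numbers and 11.1% in neither. A rule that picks a small total spread drops unigenes with a large part between groups, so neither the near-equal parts of the members nor the contrast with the eligible unigenes is a result about them. Within the libraries labelled MeJA the median CV of the members was 9.19% (eligible unigenes 25.5%), and within those labelled control it was 10.3% (eligible unigenes 27.6%). The CV was smaller within the libraries labelled MeJA in 106 of the 200 members.

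The ratios between members need no scaling. The geNorm M of a unigene is the SD over libraries of its log2 ratio to another unigene, averaged over all the others, and the library scale cancels in each ratio. It was taken over the libraries that chose the members, and unigenes chosen for a small CV must have small values among themselves, so it is no separate support. Among the 200 members M ran from 0.16 to 0.26 with a median of 0.21. The smallest values were those of c32294_g1 and c58317_g1, both 0.16, and the 6 members with the smallest CV all had an M below 0.18. Among the eligible unigenes counted in every library, M taken over all of them had a median of 0.95, and that of the members had a median of 0.77. Of the 200 eligible unigenes with the smallest such M, 104 were members.

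The steadiest ratio between any 2 members was that of c40220_g1 to c61820_g1. It was 0.0473, 0.0479 and 0.0493 in the libraries labelled MeJA and 0.0472, 0.0486 and 0.0483 in those labelled control, a CV of 1.67%. The 2 unigenes differ widely in level, and each varied far more alone than their ratio did. Unigene c40220_g1 had 22.7, 24.8 and 19.99 CPM labelled MeJA and 26.8, 25.7 and 20.8 CPM labelled control (CV 11.7%). Unigene c61820_g1 had 480 CPM, 517 CPM and 405 CPM labelled MeJA and 567 CPM, 529 CPM and 431 CPM labelled control (CV 12.6%). Both were lowest in the third library of each group. The pair was picked as the extreme of all pairs, so its closeness is a description only.

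How far a list of this kind holds in a library that did not help to choose it was measured by leaving each library out in turn. The list of 200 was chosen anew on the other 5, with the count filter and TMM factors computed anew on them. The level in the left-out library was set against the mean of those 5. For this deviation all 6 libraries were scaled together by TMM. The median absolute deviation of the chosen unigenes was 1.18-fold, 1.28-fold and 1.12-fold in the libraries labelled MeJA 1 to 3. In those labelled control 1 to 3 it was 1.18-fold, 1.24-fold and 1.18-fold. All eligible unigenes deviated by a median of 1.58-fold, 1.42-fold and 1.34-fold in the libraries labelled MeJA and 1.36-fold, 1.58-fold and 1.40-fold in those labelled control, so the chosen unigenes lay closer in 6 of 6 libraries. The next 200 unigenes by CV on the same 5 libraries deviated by between 1.15-fold and 1.27-fold, and the first 200 lay closer than these in only 3 of 6 libraries. Being steady thus carried over to a library that took no part in the choice, whereas rank within the first and the next 200 did not separate them. The left-out library had replicates of its own group among the other 5, and whether these were separate cultures is not stated. It is therefore not a new condition. Unigenes are not replicates of a condition, and no p was computed.

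The share of the chosen unigenes within 1.25-fold of the other 5 libraries was 70.0%, 46.5% and 75.5% for the libraries labelled MeJA 1 to 3 and 61.0%, 51.0% and 63.5% for those labelled control 1 to 3. For the next 200 it was 59.0%, 49.0% and 75.5% labelled MeJA and 65.0%, 51.5% and 57.0% labelled control. Over all eligible unigenes it lay between 26.2% and 39.1%. Among the chosen it was lowest in MeJA 2, where the chosen unigenes had a median of 0.834 times the mean of the others and all eligible unigenes 0.789 times. A deviation of at least 2-fold was met by at most 11 of the 200, in MeJA 2, where 6 of the next 200 met it, and by none in MeJA 3. A scale computed as the geometric mean of the chosen unigenes was off the TMM scale by -17.4% in MeJA 2 and by between -4.72% and 4.75% in the other 5 libraries. The plot of left-out libraries shows these medians beside each other.

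**Figure D4:**
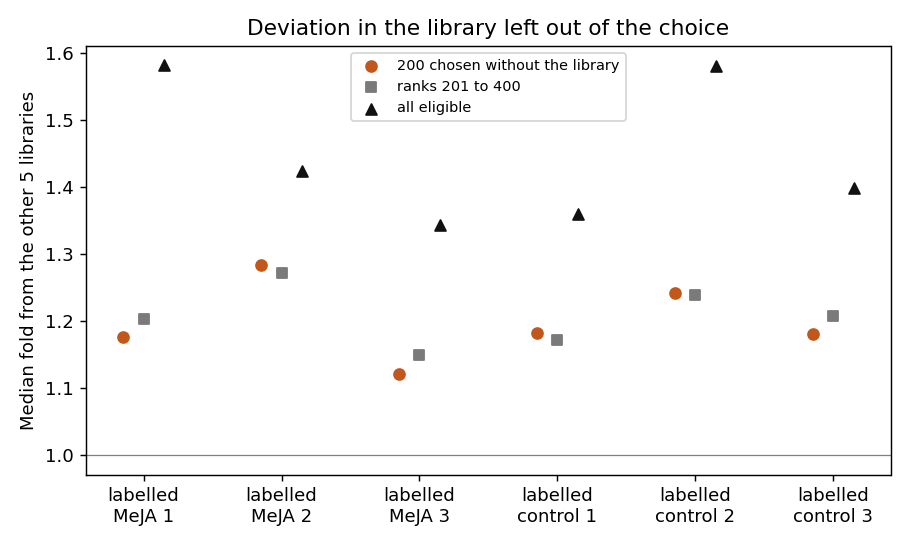
Median absolute fold deviation of a left-out library from the mean of the other 5, for the 200 unigenes chosen without that library (circles), the next 200 by CV (squares) and all eligible unigenes (triangles); the horizontal line marks no deviation. Circles lie between 1.12 and 1.28, below the triangles in every library, and below the squares in 3 of 6.

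Lists chosen within 1 group were also read in the other, against all eligible unigenes there. A list of selected extremes is bound to be wider in libraries that did not choose it, so the comparison lies with the eligible unigenes. The 200 eligible unigenes with the smallest CV over the 3 libraries labelled MeJA had a median CV of 3.58% there and of 20.3% over those labelled control, where all eligible unigenes had 27.6%. The 200 chosen over the libraries labelled control had a median CV of 3.61% there and of 19.5% over those labelled MeJA, where all eligible unigenes had 25.5%. The lists shared 8 unigenes, and 37 of the list chosen in MeJA and 30 of that chosen in control were members. Across the 7400 eligible unigenes, the CV within one group and that within the other had a Spearman rho of 0.363 and a Pearson r of 0.416. These points share the same libraries and scaling, and unigenes are not independent.

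Which unigenes count as steady rested on the library scaling. Taken as a share of all counted fragments, the 200 members together made 1.95%, 1.91% and 1.68% of the libraries labelled MeJA and 1.39%, 1.13% and 1.20% of those labelled control. The mean was 1.85 ± 0.145% labelled MeJA and 1.24 ± 0.132% labelled control (SD, n = 3 each), a ratio of 1.49 with no overlap. After TMM scaling, the summed level of the members was 15172 ± 311 CPM labelled MeJA and 15179 ± 41.6 CPM labelled control (SD, n = 3 each). Scaled by total counts alone, all 3 libraries labelled MeJA were above all 3 labelled control in 178 of the 200 members, where this held for 36.7% of all unigenes tested. The members were chosen for even levels after TMM scaling, and the mean TMM factors of the groups differed by a ratio of 1.49. The ratio of the shares and the count of 178 thus follow from these factors and are no result about the members. The median log2 fold change by total counts was 0.56 for the members and 0.56 for all unigenes tested. A change of library scale shifts all unigenes by about the same amount, so medians that were near equal under TMM stay so. With total counts the median CV of the members was 24.9%, and 1 member, c61043_g2, was called by edgeR, where 32.1% of all unigenes tested were.

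The most abundant unigenes were set beside the members. The 180 unigenes at 1000 CPM or more in at least 1 group made 13.0%, 18.7% and 18.8% of the counted fragments in the libraries labelled MeJA and 30.1%, 33.5% and 32.5% in those labelled control. They were picked for a high level in at least 1 group, by a limit that is the same for both groups. Their log2 fold change was negative in 167 and positive in 13. Picking on these levels can widen a difference in share but does not set its direction, so its size is a description only. The 10 largest of each library alone made between 2.73% and 4.12% labelled MeJA and between 8.66% and 8.98% labelled control. Their part in the difference in the members' share was not tested. The plot of count shares sets both shares beside each other.

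**Figure D5:**
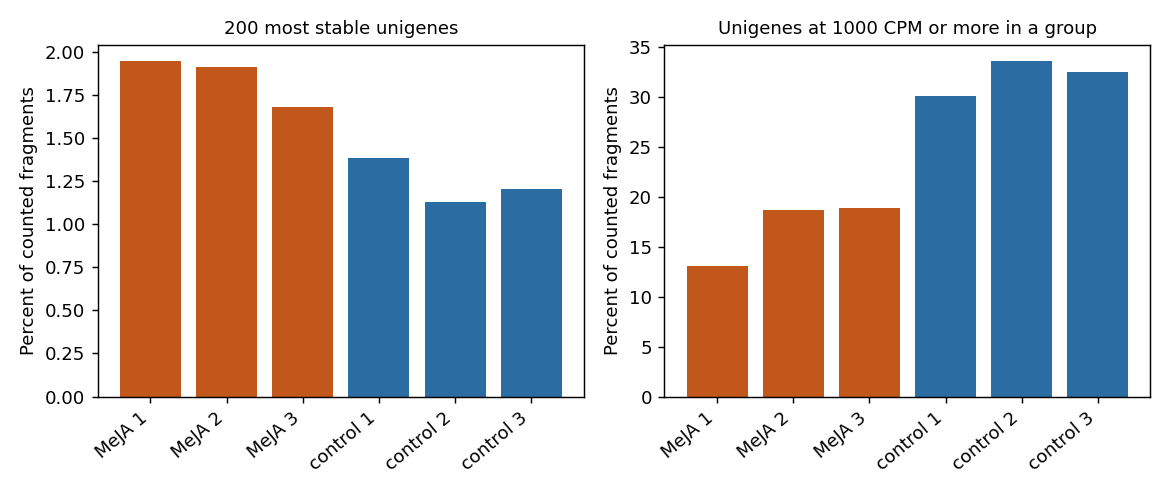
Percent of all counted fragments in each library (orange, labelled MeJA; blue, labelled control) held by the 200 most stable unigenes, on the left, and by the 180 unigenes at 1000 CPM or more in a group, on the right; each bar is 1 library and starts at 0. The members hold 1.68% to 1.95% labelled MeJA and 1.13% to 1.39% labelled control, and the abundant unigenes lie the other way round.

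A list chosen by the same rule on CPM scaled by total counts alone shared 0 unigenes with the members. Its median CV on its own scale was 11.1%, as small as that of the members on theirs. On the TMM scale all 200 of its unigenes had a lower mean in the libraries labelled MeJA, with a median ratio of 0.671 of MeJA over control. The mean TMM factors of the groups differed by a ratio of 1.49. The lack of shared unigenes and this lower mean thus follow from the factors and are no result about either list. The FPKM deposited by the authors is scaled by the library total as well, and a list chosen on it shared 1 unigene with the members. Without an outside standard, the files cannot tell these scales apart. The ratio of counts between 2 members is the same under any scale that gives each library 1 factor.

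Some members share an assembly component with other unigenes. How RSEM divided fragments among the unigenes of 1 component bears on their values. Of the 200 members, 70 (35.0%) were in a component with another unigene, against 34.0% of the eligible unigenes. Outside the list, 107 of these other unigenes passed the count filter. They had a median CV of 45.3%, and 23.4% of them were called by edgeR, where 26.8% of all unigenes tested were. The same values for the component partners of other eligible unigenes were 48.1% and 29.9%. With counts summed over the component, the median CV of these 70 was 12.6%, against 11.2% for the members alone, and 36 sums stayed within 13.1%. In 44 the other unigenes made at least 10% of the fragments of the component.

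Components c61978 and c59110 each held 2 members. Unigene c61978_g3 had 24.1, 21.9 and 24.1 CPM labelled MeJA and 27.7, 26.7 and 25.04 CPM labelled control. Its partner c61978_g1 had 83.02, 84.98 and 77.9 CPM labelled MeJA and 75.6, 72.9 and 57.7 CPM labelled control. Neither pair of groups overlapped, the first lower and the second higher in the libraries labelled MeJA, and the component sum had a CV of 10.7%. Unigene c59110_g2 had 173, 155 and 168 CPM labelled MeJA and 163, 203 and 154 CPM labelled control. Its partner c59110_g1 had 99.8, 80.9 and 71.6 CPM labelled MeJA and 87.9, 75.2 and 84.6 CPM labelled control. Their sum had a CV of 7.19%, smaller than the 10.7% and 12.1% of the 2 unigenes.

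The 3 members that made the smallest part of their component lay beside unigenes of wide spread. Unigene c58578_g1 had 22.8, 18.99 and 23.3 CPM labelled MeJA and 23.3, 20.03 and 19.01 CPM labelled control, while c58578_g4 of the same component had 251, 562 and 908 CPM labelled MeJA and 953, 926 and 1313 CPM labelled control. The other unigenes made 97.4% of the component, none of them was called, and c58578_g4 had a log2 fold change of -0.89 (edgeR adjusted p = 0.202). Unigene c61499_g1 had 30.7, 22.8 and 26.3 CPM labelled MeJA and 25.1, 23.1 and 23.4 CPM labelled control. Beside it, c61499_g3 had 56.6, 102 and 63.9 CPM labelled MeJA and 245 CPM, 320 CPM and 165 CPM labelled control (edgeR adjusted p = 0.0104, log2 fold change -1.72). Unigene c62056_g1 had 24.4, 33.3 and 28.3 CPM labelled MeJA and 32.1, 26.4 and 31.1 CPM labelled control. Its neighbour c62056_g4 had 13.7, 16.5 and 38.1 CPM labelled MeJA and 83.8, 173 and 239 CPM labelled control (edgeR adjusted p = 0.00451, log2 fold change -2.86). The sums of these 3 components had a CV of 43.3%, 60.4% and 48.9%. Sums of wide spread were not confined to them, and the following are named after their values were seen. Unigene c61477_g1 had the widest, at 65.5% with 69.5% of the component on other unigenes. The sum of c59368_g1 had 41.8% with only 22.6% on its partner. For c62281_g4 it was 41.0% with 74.1%, and for c61294_g2 37.7% with 71.2%. Of the 6 members with the smallest CV, c51503_g4 and c61709_g1 shared a component with other unigenes, none of them called, which made 19.5% and 7.16% of it, and the sums had a CV of 10.4% and 6.89%.

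The members were longer than the eligible unigenes at the median, and so were the next 200 by CV. The effective length, a property that the rule did not use, had a median of 2186 bases (quartiles 1617 and 2771) over the members and of 1716 bases (quartiles 1160 and 2464) over the eligible unigenes. Over the next 200 by CV the median was 1948 bases. By quartile of length among the eligible unigenes, from the shortest to the longest, 12, 42, 71 and 75 of 1850 each were members, which is 0.649%, 2.27%, 3.84% and 4.05%. The median CV of all eligible unigenes in these quartiles was 46.7%, 40.3%, 39.4% and 36.2%. Their median level was 46.7, 49.3, 54.5 and 60.5 CPM, and counting alone gave a median CV of 3.37%, 3.28%, 3.12% and 2.96%; the part of level and depth in the difference was not tested. The longest member was c43003_g1, at 8376 bases with a mean FPKM of 8.68 and a CV of 11.9%. Its level was 72.0, 84.6 and 64.8 CPM labelled MeJA and 66.2, 61.4 and 75.1 CPM labelled control. The shortest was c82212_g1, at 588 bases with a mean FPKM of 42.2 and a CV of 9.25%. Its level was 25.1, 27.8 and 23.3 CPM labelled MeJA and 22.6, 24.3 and 21.4 CPM labelled control. FPKM, which is per length, had a median of 24.9 over the members and 33.0 over the eligible unigenes, and ran from 5.37 to 421 over the members.

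A steady count did not always go with a steady effective length. Where a unigene holds transcripts of several lengths, the length that RSEM weighs over them can differ between libraries. The highest over the lowest length had a median of 1.01 over the members and of 1.02 over the 7362 eligible unigenes with a length in every library. It was above 1.25 in 9 members (4.50%), against 6.00% of those eligible unigenes, and above 1.5 in 3 members, which are named here after their values were seen. The widest was c61820_g1, also a partner in the steadiest pair, at 2742, 2397 and 1935 bases in the libraries labelled MeJA and 788, 601 and 707 bases in those labelled control. Its FPKM was 219, 275 and 235 labelled MeJA and 657, 655 and 486 labelled control, so that on this per-length scale the groups lay far apart while its CPM overlapped. Unigene c61902_g2 had 2625, 3109 and 2331 bases labelled MeJA and 1647, 1762 and 1186 bases labelled control, with a CV of CPM of 10.8%. In c57765_g1, at 1839 to 2816 bases, the lengths of the groups overlapped.

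A core of the list recurred whichever single library was left out. Each library left out in turn gave a list that shared between 107 and 145 of its 200 unigenes with the members, the fewest without MeJA 2 (107), control 2 (110), control 1 (122) and control 3 (127). In all 6 such lists were 54 members, and 31 were in 1 only. Each list reuses 5 of the 6 libraries that chose the members, so recurrence is in part built in and is a description only. All 54 were also among the 114 members common to the lists chosen with RLE factors, upper-quartile factors, the SD of log2(CPM + 1), the counting variance subtracted, filterByExpr and no filter. None of the 54 was in the list chosen by total counts alone. The core included the 6 members with the smallest CV, which are the likeliest to recur. By CV over all 6 libraries, c61053_g1, c58317_g1 and c32294_g1 came first in it. The CV of c61053_g1, 3.12% over all 6, was 5.05% to 5.62% without MeJA 1, MeJA 3 or any 1 control library. The TMM factors were computed anew on the 5 libraries left, so these values hold a change of scale as well as the loss of a library. Of the members given above for other reasons, c61978_g3, c59110_g2 and c58578_g1 were also in all 6 lists.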

How the data were processed

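The data were 6 RNA-Seq libraries of licorice suspension cells, 3 with the label MeJA and 3 with the label control, of 17041503 to 21670946 counted fragments each. Base calls came from CASAVA, the reads were assembled de novo, and RSEM was run on the result. For the assembler, aligner and filters, settings and versions were not found among the sources. The authors deposited the expected count of each unigene (RSEM's estimated fragments, not normalized) and the FPKM computed from it, per kilobase of effective length and 1000000 fragments. Replicates were not pooled.

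Expected counts were rounded. Unigenes with at least 10 counts in at least 3 libraries were kept and scaled by TMM. The members and the lists were chosen with earlier results of these data known, and the list rule uses measured values. Differential expression used edgeR 4.0.16 in R 4.3.3 (glmQLFit and glmQLFTest, no covariates, Benjamini-Hochberg adjustment over all unigenes tested, threshold 0.05). Standard errors are the absolute log2 fold change over the square root of the F statistic. The alternatives were other scalings, filters, level limits and measures of spread, FPKM, sums per component, the replicate number as a block, DESeq2 1.42.0, limma 3.58.1 on log2 FPKM with a pseudocount of 1 or 0.1, and each library left out. Effective length is the count over the FPKM and the library total, taken only for counts of 10 or more and FPKM of 0.3 or more, as the median over libraries unless given by library. Tables and plots used Python 3.11.15 with pandas 2.3.3 and matplotlib 3.10.9. The fit and the list rule were tested on simulated data.

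Named unigenes are the 6 members with the smallest CV, the smallest CV in each band of level, the last 2 ranks inside the list and the first 2 outside, the highest and lowest mean, the 3 largest fold changes, the smallest geNorm M and closest pair, components with several members, the 3 members with the largest share of fragments on other unigenes of the component, and the longest and shortest; neighbours in those components were named after their values were seen.

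After subtracting group means, libraries of the same replicate number correlated at 0.255, 0.278 and 0.294 across unigenes, and between different numbers at -0.389 to 0.125. Libraries of the same number thus correlated above all others, which is the only ground for pairing here. No source states that the numbers mark pairs. All calls and adjusted p-values are from the fit without the block unless the block is named. No replicates were duplicates, with a chi-square per degree of freedom of at least 86.4.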

Additional observations from a re-analysis of the deposited data

How the results depend on the processing

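The list kept between 139 and 200 of its members under 11 alternatives. Total counts only kept 0, the authors' FPKM 1 and the mean of the within-group CVs 75. A mean CPM of at least 50 kept 102, since the other members lie under that limit. With each library left out the list kept between 107 and 145. The median CV of the members, 11.2%, was 24.9% with total counts only and 24.7% on FPKM, and 10.3% to 11.3% with each library left out. That of c61053_g1, 3.12%, was 2.35% with RLE factors, 5.99% with upper-quartile factors and 25.1% with total counts only. It was 3.51% without MeJA 2 and 5.05% to 5.62% with any other library left out, where the TMM factors were also computed anew. The number of members called by edgeR, 0, stayed 0 with each library left out. It was 1 with total counts only, where 7945 of the 24775 unigenes tested were called. A fit by total counts that also blocked on replicate number was chosen after seeing the data. It called 12 members, beside 9673 of the 24775 unigenes. For limma on log2(FPKM + 1) these numbers were 2 members and 8105 unigenes, and on log2(FPKM + 0.1) 3 members and 7893 unigenes. The log2 fold change of c1363_g1 turned to 0.29 with total counts only, 0.29 with the block added, 0.28 with limma on log2(FPKM + 1) and 0.29 on log2(FPKM + 0.1), and that of c51410_g2 to 0.30, 0.29, 0.28 and 0.29; these scales shift all unigenes, by a median of 0.56 with total counts only.

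Over all unigenes tested, 6648 were called, 53.1% of them higher in the libraries labelled MeJA. Total counts only called 7945, with 77.4% higher. With each library left out the number was between 2775 and 5956, the lowest without control 2 (2775), MeJA 1 (2818), MeJA 3 (3975) and control 3 (4003); the cause was not tested. Adding the replicate block, 8355 were called and 0 of the members, and the block changed no call among the members under TMM scaling. Counting error alone exceeded the observed CV in 1 member.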
